A study of Arabidopsis thaliana with 4 samples.

Results

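The comparison described here set the leaf transcriptome of suvr5 ldl1 ldl2 triple mutants against that of ldl1 ldl2 double mutants, and so asked what the loss of SUVR5 changed in plants that already lacked both LDL demethylases. It used 2 of the 4 mRNA-Seq libraries of the study, 1 from each genotype, and the other 2 libraries (wild-type Col-0 and the suvr5-1 single mutant) served to place each gene. All plants were of the Col-0 ecotype and were grown in long days, and poly(A) RNA from their leaves was sequenced. By the labels the 2 libraries compared shared the ldl1 and ldl2 mutations and differed in suvr5, and the extraction protocol names the alleles suvr5-1 and ldl1-2. The deposited files list mapped read positions, and reads were counted on the exons of the 16622 of 37899 annotated genes that lie where those positions match the TAIR10.1 annotation within 30 bp. Of these, 11939 had a read in at least 1 of the compared libraries and were tested.

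SUVR5 is a SET-domain protein of the Su(var)3-9 family that carries zinc fingers and is linked to H3K9me2, a histone mark of silent chromatin. LDL1 and LDL2 are relatives of the human demethylase LSD1, which removes methyl groups from H3K4, a mark of active genes. The triple mutant therefore tests SUVR5 in leaves from which a second repressive activity has been removed. SUVR5 and LDL1 lie outside the analysed stretches, so the reads counted here do not check the suvr5 and ldl1 labels. LDL2 (AT3G13682, chr3:4478873-4481767) had 25 reads in the wild type, 26 in suvr5-1, 8 in the double and 5 in the triple mutant, and in that order 3.12, 2.09, 1.14 and 0.616 RPKM, which are reads on a gene scaled to the length of its merged exons and to all reads on genes of the library. The LDL2 level was lowest in the libraries labelled ldl1 ldl2, and the difference between those 2 libraries was not past the threshold.

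The ldl1 ldl2 library held 2491499 reads on genes and the triple mutant library 2881486. Reads piled up on few positions, since distinct positions and strands made up 11.6% of the nuclear reads of ldl1 ldl2 and 15.7% of those of the triple mutant. With 1 library per genotype there was no replicate check. Fisher's exact test on the reads compares the 2 libraries and not the genotypes, and every interval of a ratio given below is a 95% exact interval that covers counting error only. Across the 9563 genes with at least 10 reads over both libraries, the median log2 ratio of triple mutant to ldl1 ldl2 was 0.15, and with median-of-ratios size factors in place of reads on genes it was -0.0013, so every ratio below can be read against that offset.

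Calls required a ratio of normalised reads over 4 in either direction together with an adjusted P (two-sided Fisher's exact test, Benjamini-Hochberg over all genes tested) under 0.01. By this rule 6.63% of the tested genes were called, of which 485 genes (4.06% of those tested) were higher in the triple mutant library and 307 (2.57%) were lower. The 485 higher genes had a median of 0.845 RPKM in ldl1 ldl2 and 9.06 RPKM in the triple mutant, beside 2.64 and 3.87 RPKM in Col-0 and suvr5-1. The 307 lower genes had a median of 8.89 RPKM in ldl1 ldl2 and 0.760 in the triple mutant, beside 1.97 and 2.98 RPKM in Col-0 and suvr5-1. In both sets the medians of Col-0 and suvr5-1 thus lay between those of the 2 compared libraries. Of the higher genes, 400 were highest of the 4 libraries in the triple mutant and 330 were lowest in ldl1 ldl2, an order that the choice of genes by these 2 libraries favours. Of the lower genes, 256 were highest of the 4 in ldl1 ldl2 and 175 were lowest in the triple mutant. Most called genes were weakly expressed in the lower library, where 343 of the higher and 224 of the lower genes had fewer than 10 reads. With median-of-ratios size factors 384 genes were higher and 356 lower, so that 51.9% of the calls were higher in place of 61.2%. Counting each position and strand once left 170 higher and 78 lower genes, and a beta-binomial test with an assumed spread between plants left 97 and 37.

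**Figure D1:**
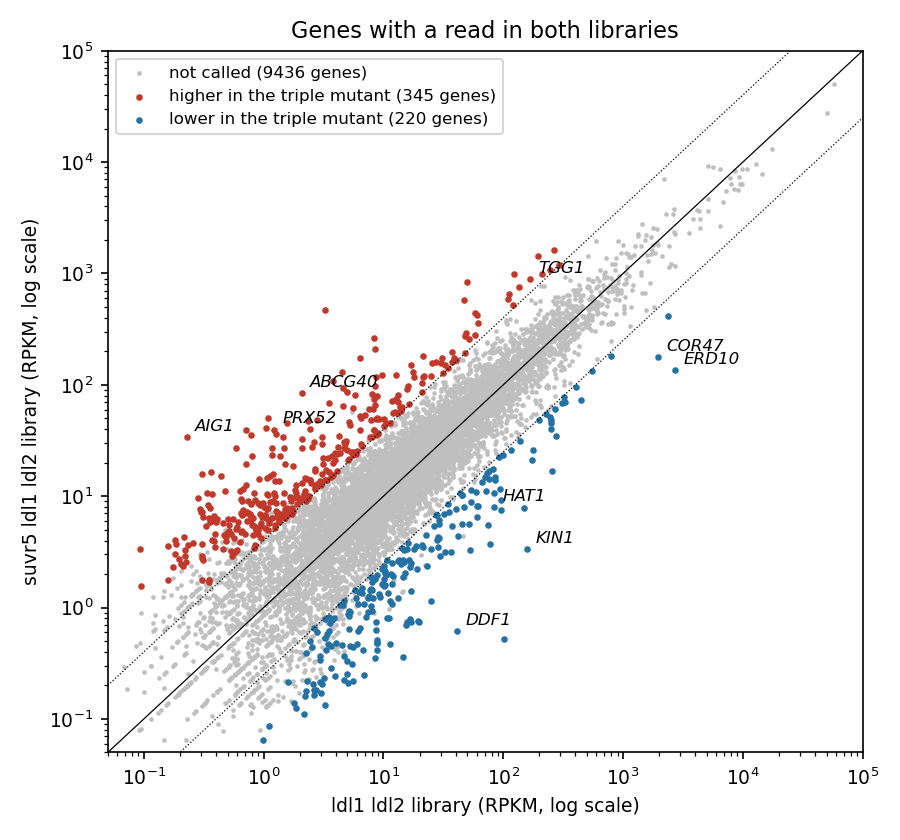
RPKM in the triple mutant library (vertical) against the ldl1 ldl2 library (horizontal), both on log axes, for genes with a read in both; the solid line marks equal values, the dotted lines a 4-fold difference, and red and blue points are the 345 higher and 220 lower called genes that have a read in both libraries. ERD10 and COR47 stand out as lower genes of high abundance, and AIG1 lies farthest above the line.

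The 10 higher genes of largest ratio included genes of defence, ethylene synthesis, transport and cell wall oxidation. Values of a gene are given below in the order Col-0, suvr5-1, ldl1 ldl2 and triple mutant. AIG1 (AT1G33960, chr1:12346138-12348733), a GTP-binding protein gene induced by bacterial avirulence, had 1.79, 5.91, 0.227 and 34.2 RPKM. It had 1 read in ldl1 ldl2 and 174 in the triple mutant, a ratio of 150 with an interval of 26.7 to 5976. AIG1 was therefore highest in the triple mutant and lowest in the double mutant, with both other libraries between them. UGT76B1 (AT3G11340, chr3:3556554-3558361) encodes a glucosyltransferase of isoleucic acid and salicylic acid, and it had no read in Col-0, 2.23 RPKM in suvr5-1, no read in ldl1 ldl2 and 54.2 RPKM in the triple mutant. Set against 3 reads for the empty ldl1 ldl2 library, it was 77.8-fold higher in the triple mutant, and its exact interval starts at 62.9. AT3G13610, which encodes a 2-oxoglutarate-dependent oxygenase of coumarin synthesis, had 0.239, 0.926, 0 and 67.3 RPKM. It was 82.1-fold higher by the same floor, with an exact interval that starts at 66.4. Both genes were thus under 3 RPKM in every library but the triple mutant.

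ABCG40 (AT1G15520, chr1:5331858-5338326), a membrane transporter that imports abscisic acid, had 10.7, 6.70, 2.08 and 84.7 RPKM. This ratio of 40.8 (interval 27.3 to 64.0) rested on 24 and 1133 reads, the largest read numbers among the 10 genes of highest ratio. ACS2, an enzyme that makes the ethylene precursor, had 3.57, 3.84, 0.582 and 27.2 RPKM, and its ratio was 46.7 (15.7 to 229). PRX52, a cell wall peroxidase, had 7.27, 1.22, 1.23 and 39.7 RPKM, with a ratio of 32.2 (12.3 to 120). The low ldl1 ldl2 values of ACS2, PRX52 and ABCG40 were below Col-0, so both the low level in the double mutant and the high level in the triple mutant entered these ratios. The same held for AT3G18250, a putative membrane lipoprotein gene with 131, 65.5, 3.28 and 475 RPKM and a ratio of 145 (49.2 to 704), and for AT1G10585, a bHLH transcription factor gene with 54.2, 8.24, 1.09 and 50.4 RPKM. AT1G10585 was as high in Col-0 as in the triple mutant. The last of the 10 were the receptor-like kinase gene CRK37 (0.795, 1.34, 0.363 and 16.7 RPKM) and AT5G25260, a flotillin-like membrane protein gene (1.45, 4.14, 0.709 and 39.4 RPKM), both highest in the triple mutant. AT3G18250, AT3G13610, AT5G25260 and AT1G10585 share part of their exon bases with another annotated gene, and without a stranded count their reads cannot be separated from it.

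Several genes of salicylic acid signalling were higher in the triple mutant, and most of the list was not called. This hormone is made in the chloroplast after pathogen attack, is sensed by the NPR proteins, and drives local and systemic resistance. Of 23 genes of salicylic acid and systemic immunity, 6 were higher, 1 was lower and 16 were not called, beside 4.06% and 2.57% of all genes, and their median log2 ratio was 0.71 beside 0.15 over all genes. All 6 higher genes had their highest value of the 4 libraries in the triple mutant. In synthesis, PBS3 (AT5G13320, chr5:4267456-4271064), which conjugates isochorismate to glutamate, had 3.49, 14.9, 8.12 and 61.1 RPKM and was 7.52-fold higher (5.65 to 10.2). EDS5, which exports isochorismate from the chloroplast, had 6.37, 8.93, 16.2 and 56.3 RPKM and a ratio of 3.49 (2.76 to 4.44), below the 4-fold limit. Both synthesis genes were thus highest in the triple mutant, and PBS3 alone passed the call.

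Among the regulators, NIMIN1 (AT1G02450, chr1:497917-498539), which binds NPR1, had 2.26, 16.4, 4.51 and 129 RPKM, a ratio of 28.7 (13.7 to 72.1). CBP60G, a transcription factor of salicylic acid synthesis, had 12.5, 22.5, 48.2 and 89.5 RPKM and was not called. Turnover genes included UGT76B1, described above, and hydroxylases. AT4G10500 (DLO1), a salicylic acid hydroxylase, had 2.33, 12.7, 8.57 and 97.4 RPKM and was 11.4-fold higher (7.78 to 17.2), whereas the related hydroxylase DMR6 had 10.7, 99.5, 114 and 391.7 RPKM and a ratio of 3.43 (3.08 to 3.82). In systemic signalling, FMO1, which makes N-hydroxypipecolic acid, had no read in Col-0 and 2.73, 0.629 and 11.2 RPKM in suvr5-1, ldl1 ldl2 and the triple mutant, a ratio of 17.9 (5.84 to 89.0) on 3 and 62 reads. AZI1 (AT4G12470), a lipid-transfer protein of systemic priming, went the other way, with 234, 44.9, 84.9 and 14.0 RPKM. It was 6.05-fold lower (4.19 to 8.95) and was lowest of the 4 libraries in the triple mutant. With positions counted once, 6 genes of this list were higher but its median log2 ratio was 0.19, near the 0.16 of all genes in that setting, and 4 genes were higher where positions had to match within 10 bp.

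**Figure D2:**
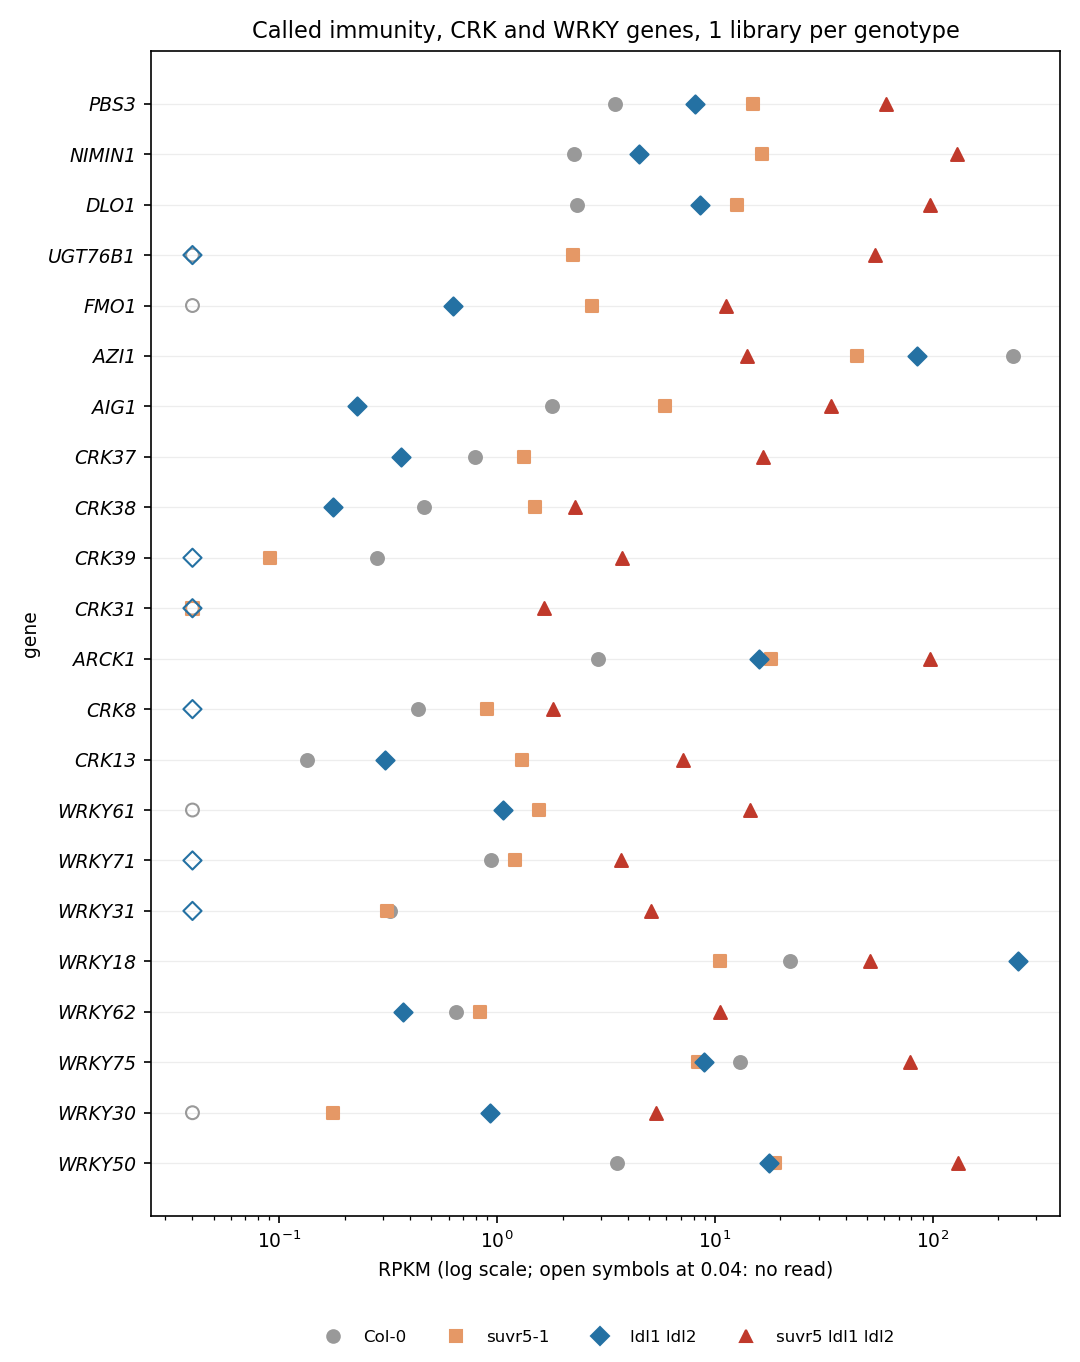
RPKM on a log axis of each called gene of the salicylic acid, cysteine-rich receptor-like kinase and WRKY lists, 1 symbol per library and no error bar since each genotype has 1 library; open symbols at the left edge mark genes without a read. The triple mutant (triangle) lies to the right of the other 3 libraries for each of the 20 higher genes, and AZI1 and WRKY18 are the exceptions with lower values than in ldl1 ldl2.

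Most cysteine-rich receptor-like kinases (CRKs) sit in the plasma membrane, and many respond to pathogens and oxidative stress. Of 38 CRK genes in the stretches 35 had a read, and 7 were higher and none lower, beside 4.06% and 2.57% of all genes, with a median log2 ratio of 0.60 over the 31 with at least 10 reads. ARCK1 (AT4G11890), a kinase named for abscisic acid responses, is annotated as a protein kinase superfamily protein and not as a receptor. It had 2.92, 18.2, 15.98 and 97.1 RPKM, a ratio of 6.08 (4.70 to 7.97) on 67 and 471 reads. CRK13 followed with 0.134, 1.30, 0.306 and 7.15 RPKM on 2 and 54 reads, a ratio of 23.3 (6.16 to 198). CRK8, CRK31 and CRK39 had no read in ldl1 ldl2 and 21, 11 and 27 reads in the triple mutant. All 7 were highest in the triple mutant, but 6 of them stayed below 17 RPKM there. CRK genes stand in tandem arrays of similar sequence on chromosome 4, so reads of single members are uncertain where they match several copies. With each position counted once, 4 CRK genes were higher.

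WRKY transcription factors bind W-box motifs and regulate defence and senescence genes. Of 32 WRKY genes with a read, 7 were higher and 1 was lower, beside 4.06% and 2.57% of all genes, and the median log2 ratio was 0.82 over the 27 with at least 10 reads, beside 0.15 over all genes. WRKY50, a factor of the salicylic acid and jasmonate responses, had 3.57, 18.9, 17.8 and 131 RPKM and was 7.35-fold higher (5.44 to 10.13). WRKY75, a factor of phosphate starvation and senescence, had 13.0, 8.40, 8.92 and 78.8 RPKM and was 8.84-fold higher (5.44 to 15.2). WRKY61, WRKY62, WRKY31, WRKY30 and WRKY71 were higher on 12 to 79 reads in the triple mutant. WRKY18 (AT4G31800, chr4:15382777-15385100), which acts with WRKY40 and WRKY60 as a modulator of defence, had 22.2, 10.5, 248 and 51.7 RPKM and was 4.79-fold lower (4.23 to 5.45). WRKY18 was still higher in the triple mutant than in Col-0, so the lower value was relative to a high level in ldl1 ldl2. With positions counted once, 4 WRKY genes were higher and none lower.

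The list with the most lower calls was that of cold and dehydration genes. CBF and DREB transcription factors bind the dehydration element of target promoters and switch on hydrophilic protective proteins such as dehydrins. Of the 13 genes of this list, 9 were lower, 4 were not called and none was higher, beside 2.57% lower and 4.06% higher over all genes. Their median log2 ratio was -2.55 over the 12 genes with at least 10 reads, beside 0.15 over all genes, and 11 of these 12 ratios were negative. The protective proteins carried most reads. ERD10 (AT1G20450, chr1:7087903-7089606), a dehydrin, had 476, 452, 2704 and 135 RPKM on 2202, 3233, 10939 and 631 reads, and was 20.05-fold lower (18.5 to 21.8) in the triple mutant. COR47 (AT1G20440, chr1:7084409-7086873), the dehydrin gene beside it, had 512, 529, 1959 and 178 RPKM and was 10.98-fold lower (10.3 to 11.7). For both dehydrins the ldl1 ldl2 library was the high one and the triple mutant the low one, and Col-0 and suvr5-1 lay between with values close to each other.

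KIN1 (AT5G15960, chr5:5209717-5210826), a small cold-induced protein, had 108, 121, 158 and 3.35 RPKM, so that only the triple mutant stood apart, and it was 47.1-fold lower than ldl1 ldl2 (23.6 to 110). Its neighbour and near copy KIN2 (AT5G15970) had 1451, 2387, 2379 and 417 RPKM and was 5.70-fold lower (5.31 to 6.13), and reads that match both copies make the 2 values uncertain. COR413IM1, a chloroplast membrane protein, had 272, 345, 444 and 73.8 RPKM and was 6.02-fold lower (5.20 to 6.99). LEA14 was different in that 191, 158 and 180 RPKM in Col-0, suvr5-1 and the triple mutant contrasted with 801 RPKM in ldl1 ldl2, a ratio of 4.46 (4.101 to 4.85) in favour of ldl1 ldl2. The protective genes therefore fell into those below Col-0 in the triple mutant and one, LEA14, that was near Col-0.

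Of the factors, DDF1 (AT1G12610, chr1:4289883-4291017), a CBF relative that lowers gibberellin, had no read in Col-0 and suvr5-1, 41.0 RPKM in ldl1 ldl2 and 0.612 in the triple mutant, or 116 and 2 reads. The ratio of ldl1 ldl2 to triple mutant was 67.1 with an interval of 18.2 to 560. DDF1 was thus expressed above 1 RPKM in the ldl1 ldl2 library alone. CBF2 (AT4G25470) had 7.48, 26.9, 15.5 and 0.704 RPKM on 21, 117, 38 and 2 reads, a ratio of 22.0 (5.68 to 188). DREB2A, the drought branch of the family, had 7.23, 3.02, 27.7 and 6.73 RPKM and was 4.12-fold lower (2.76 to 6.30). CBF1 with 3 and 2 reads, DREB1A (CBF3) with 14 and 4 reads, DREB2B with 30 and 31 reads and the zinc finger gene STZ with 370 and 485 reads in ldl1 ldl2 and the triple mutant were not called. The CBF genes lie in tandem and share sequence, so their split is uncertain. With each position counted once, 6 genes of the list were called lower and the median log2 ratio was -1.96, and that of the ERD10 gene AT1G20450 moved from -4.33 to -2.58 and that of the COR47 gene AT1G20440 from -3.46 to -2.07.

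**Figure D3:**
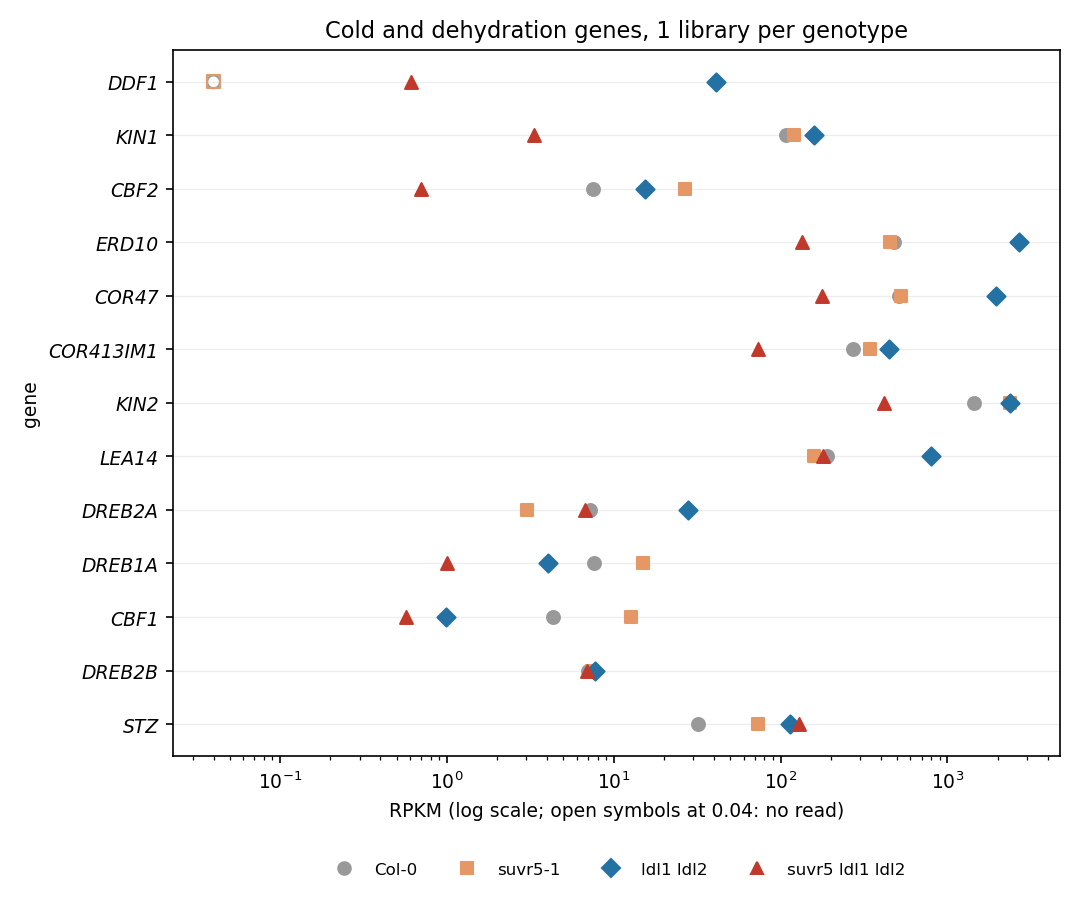
RPKM on a log axis of all 13 measured cold and dehydration genes, 1 symbol per library and no error bar; open symbols at the left edge mark DDF1 without a read. The triple mutant (triangle) lies left of ldl1 ldl2 (diamond) for 12 genes, and STZ is the exception.

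The upstream sequences of 4 of these lower genes are shown because each holds AAATATCT or a G-box, CACGTG. AAATATCT, a short form of the evening element that clock factors such as LHY bind, is called by that name below. The longer form AAAATATCT was not searched. Each line gives the 250 bases before the annotated start, 5′ to 3′ on the strand of the gene, from the RefSeq TAIR10.1 assembly, with either motif on either strand in capitals.
LEA14 (chr1:172949-173198, minus strand): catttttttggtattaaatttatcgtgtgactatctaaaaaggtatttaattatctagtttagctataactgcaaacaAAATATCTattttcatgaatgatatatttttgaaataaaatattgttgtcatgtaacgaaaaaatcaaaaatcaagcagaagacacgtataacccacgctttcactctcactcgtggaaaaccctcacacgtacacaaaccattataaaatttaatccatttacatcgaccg
KIN1 (chr5:5209467-5209716, plus strand): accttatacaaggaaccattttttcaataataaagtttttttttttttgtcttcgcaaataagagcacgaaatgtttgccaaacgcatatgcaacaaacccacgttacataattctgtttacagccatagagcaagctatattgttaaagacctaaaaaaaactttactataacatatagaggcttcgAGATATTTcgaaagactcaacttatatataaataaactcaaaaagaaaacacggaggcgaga
CBF2 (chr4:13016236-13016485, minus strand): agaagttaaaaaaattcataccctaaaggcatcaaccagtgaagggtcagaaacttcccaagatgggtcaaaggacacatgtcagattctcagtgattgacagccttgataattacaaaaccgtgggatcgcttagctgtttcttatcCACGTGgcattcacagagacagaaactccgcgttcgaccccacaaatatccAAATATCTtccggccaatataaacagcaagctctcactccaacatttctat
COR413IM1 (chr1:10289667-10289916, minus strand): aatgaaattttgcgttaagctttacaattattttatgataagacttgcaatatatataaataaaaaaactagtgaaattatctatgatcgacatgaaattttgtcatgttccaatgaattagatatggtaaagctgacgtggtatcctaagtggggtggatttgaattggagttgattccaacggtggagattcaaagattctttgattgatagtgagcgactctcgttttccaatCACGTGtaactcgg
The evening element starts 172 bases before the LEA14 start, 62 bases before that of KIN1 and 51 bases before that of CBF2, whose G-box starts 102 bases before it. In windows of 300 bases, from 250 before to 50 after the start, the evening element was found in 4 of the 9 lower cold genes (44.4%, Wilson interval 18.9 to 73.3%) and in 5.67% of all tested genes. The G-box was found in 3 of 9 (33.3%, 12.1 to 64.6%) and in 7.91% of all. The form GCCGAC of the dehydration element was found in none of the 9 windows, which allows a share of up to 29.9%. It was found in 3.57% of all windows. In 1 kb upstream it was found in 1 of the 9 genes (11.1%) and in 9.17% of all. Other forms of the element, such as ACCGAC, were not searched. A match only describes the letters.

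None of the 7 clock genes was called, and 3 of their log2 ratios were positive and 4 negative. Of the 5 morning genes, LHY had 33.8, 31.0, 16.8 and 45.7 RPKM, RVE1 had 18.6, 14.6, 4.97 and 18.2 RPKM, and RVE8 had 19.6, 14.6, 13.9 and 21.9 RPKM, with log2 ratios of 1.44, 1.87 and 0.66. The morning genes PRR7, with 32.9, 18.04, 31.5 and 12.7 RPKM, and LCL1, with 46.9, 53.1, 49.7 and 38.4 RPKM, had log2 ratios of -1.32 and -0.37, so the morning genes went both ways. The evening genes GI, with 9.72, 9.70, 16.98 and 6.61 RPKM, and PRR5, with 23.5, 18.4, 25.4 and 14.1 RPKM, had log2 ratios of -1.36 and -0.85. The list median was -0.37, and 0.14 where positions had to match within 10 bp. The labels give no harvest times, and the part of the clock in the cold result was not tested.

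Of 15 jasmonate genes, 1 was higher and 1 lower, beside 4.06% and 2.57% of all genes. Of their log2 ratios 7 were positive and 8 negative. Jasmonate frees MYC2 from JAZ repressors, and the JAZ genes are themselves induced as a brake. LOX3, an enzyme of jasmonate synthesis, had 6.72, 10.3, 178 and 55.2 RPKM, JAZ1 had 19.1, 20.3, 185 and 72.3 RPKM, and MYC2, nearly all of whose exon bases overlap another annotated gene, had 36.1, 33.9, 204 and 72.4 RPKM. These 3 genes were 3.23-fold (2.91 to 3.59), 2.56-fold (2.27 to 2.90) and 2.81-fold (2.57 to 3.08) lower in the triple mutant, below the limit of a call, and in both LDL mutant libraries they were above Col-0 and suvr5-1. JAZ8 had 0.436, 0, 17.9 and 0 RPKM and was 13.9-fold lower, with 3 reads set for the triple mutant. ST2A, a sulfotransferase of jasmonate turnover, was the list's one higher gene, with 4.94, 14.7, 1.58 and 45.1 RPKM and a ratio of 28.5 (13.6 to 71.8). The median log2 ratio of the list was -0.26, but 0.55 where positions had to match within 10 bp and 0.09 without genes that share exon bases. Of 11 rapid wound and touch genes, 3 were lower (WRKY18, CBF2 and DREB2A, already described) and none higher, beside 2.57% and 4.06% of all genes. Their median log2 ratio was -0.16.

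The other lower genes of large ratio were of several classes. MYB47 (AT1G18710), a MYB transcription factor, had 30.3, 24.2, 150 and 7.88 RPKM and was 19.0-fold lower (13.1 to 28.7). RRTF1 (AT4G34410, chr4:16451876-16453260), a redox-responsive ERF factor, had 7.10, 6.88, 74.8 and 5.51 RPKM and was 13.6-fold lower (8.77 to 22.0). The noncoding RNA AT4G08985 lies within the same bases on the other strand, and with 166 and 1 reads in ldl1 ldl2 and the triple mutant it cannot be separated from RRTF1 in a count without strand. For MYB47 and RRTF1 the ldl1 ldl2 library alone was high. AT4G35985, a senescence and dehydration-associated gene, had 5.73, 2.98, 52.5 and 3.30 RPKM, and AT1G15010, annotated as a mediator subunit, had 4.98, 10.8, 254 and 16.99 RPKM. Those genes followed the same pattern of a single high library. HAT1, a homeodomain factor of shade and auxin responses, differed in that it had 53.8, 45.4, 83.9 and 7.93 RPKM, so that the triple mutant was the low library, 10.6-fold (7.38 to 15.7) below ldl1 ldl2.

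**Figure D4:**
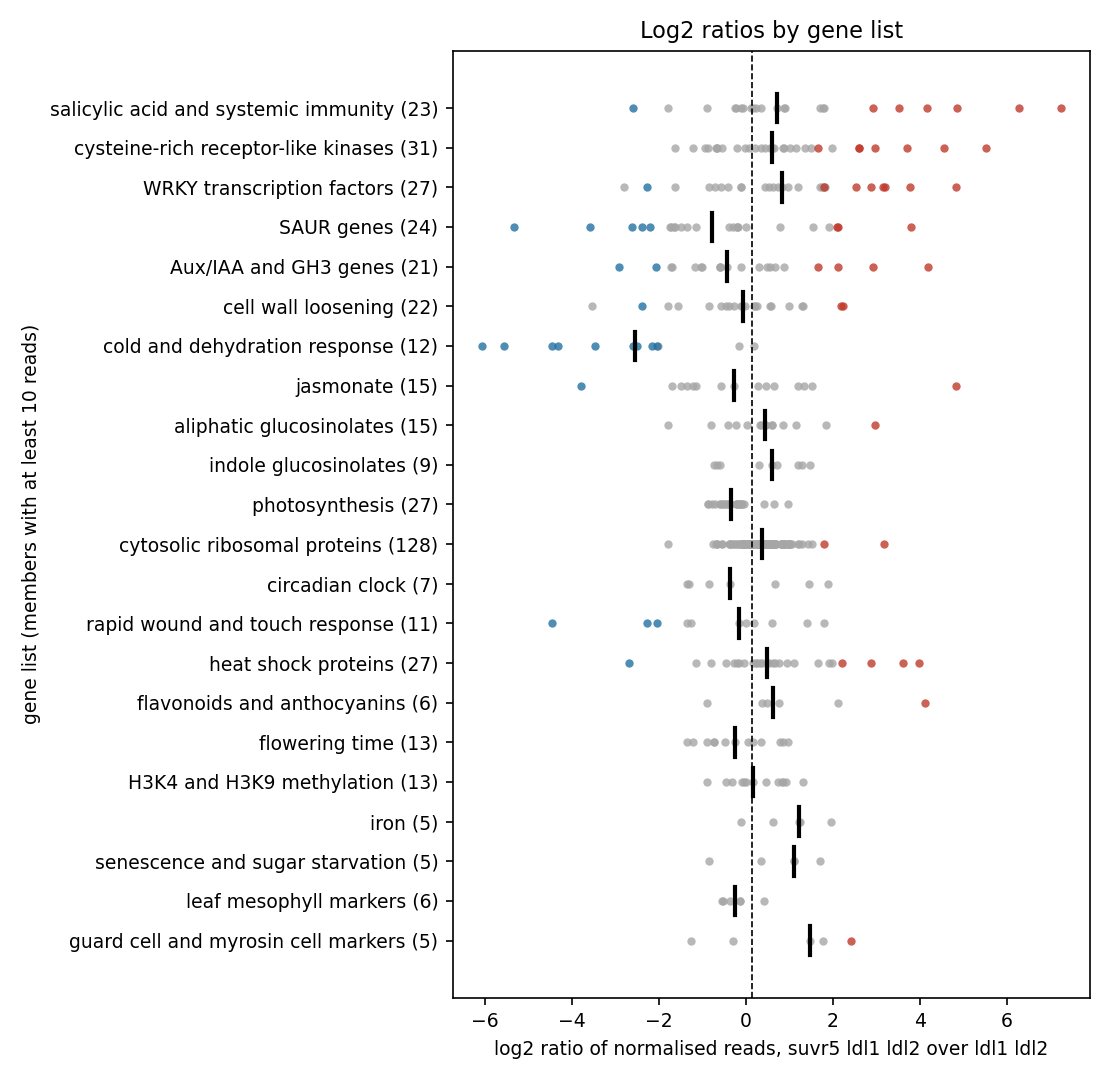
Log2 ratio of normalised reads, triple mutant over ldl1 ldl2, for each member with at least 10 reads over both libraries (number in parentheses), by gene list; red and blue points are called genes, black bars list medians, and the dashed line the median of 0.15 over all genes. The cold and dehydration list has its median at -2.55, and the medians of the salicylic acid, CRK and WRKY lists lie to the right of the dashed line. Medians of other lists, such as iron (1.22) and guard cell and myrosin cell markers (1.48), lie farther right.

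Auxin-related lists had calls in both directions. SAUR genes are short auxin-induced transcripts that promote cell expansion. Of 51 SAUR genes in the stretches 41 had a read, 3 were higher and 5 lower, beside 4.06% and 2.57% of all genes, and the median log2 ratio was -0.77 over the 24 with at least 10 reads. AT1G29460 had 13.7, 29.7, 32.3 and 6.98 RPKM on 35, 117, 72 and 18 reads and was 4.63-fold lower (2.73 to 8.24). AT1G29450 and AT1G29500, from the same cluster on chromosome 1, had 48 and 9 reads and 35 and 1 reads in ldl1 ldl2 and the triple mutant. AT3G12830, a SAUR gene also measured by RT-qPCR, was higher, with 10.07, 19.5, 13.1 and 55.8 RPKM and a ratio of 4.24 (2.89 to 6.41), and its log2 ratio of 1.93 with size factors was below the limit. SAUR counts were small, and with positions counted once 1 was higher and 1 lower.

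The Aux/IAA repressors and GH3 conjugating enzymes included 4 higher and 3 lower genes of 25 with a read, beside 4.06% and 2.57% of all genes. With size factors 2 were higher, and with each position counted once 2 were higher and 1 lower. SHY2 (IAA3), a repressor of auxin responses that shares exon bases with another gene, had 6.48, 16.2, 25.2 and 3.33 RPKM and was 7.56-fold lower (4.19 to 14.8). WES1 (GH3.5), which conjugates auxin to amino acids, had 15.5, 7.61, 16.01 and 3.83 RPKM and was 4.18-fold lower (2.68 to 6.73). BRU6 (GH3.2) had 3.08, 3.87, 0 and 10.08 RPKM and was 18.2-fold higher, with 3 reads set for ldl1 ldl2. PBS3, also of the GH3 family, has been described. Among members with at least 10 reads, 2 of 15 Aux/IAA repressors were higher and 1, SHY2, was lower. Of 6 GH3 genes 2 were higher and 1 lower. Both groups thus split between both directions. Among 27 cell wall loosening genes with a read, 2 were higher and 2 lower, beside 4.06% and 2.57% of all genes. The expansin gene EXPA11 was higher (11.3, 89.8, 8.37 and 39.6 RPKM) and the xyloglucan endotransglucosylase gene XTH9 was lower (8.52, 23.9, 40.5 and 7.73 RPKM).

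Lists of abundant housekeeping and metabolic genes had few or no calls. None of 27 photosynthesis genes was called, and 24 of their log2 ratios were negative with a median of -0.34. The antenna gene CAB1, with 47098, 49356, 50370 and 27730 RPKM, lay below that median, and the lowest log2 ratio of the list was -0.87. Cytosolic ribosomal protein genes had 2 higher and no lower calls among 130 with a read, beside 4.06% and 2.57% of all genes, and a median of 0.36. Of 16 aliphatic glucosinolate genes 1 was higher and none lower, beside 4.06% and 2.57% of all genes. The called gene was IMS2, a side-chain elongation enzyme, with 29.0, 3.23, 0 and 5.12 RPKM. It was 7.78-fold higher in the triple mutant, with 3 reads set for ldl1 ldl2. None of the 9 indole glucosinolate genes with a read was called. Heat shock proteins had 4 higher genes and 1 lower gene among 34, beside 4.06% and 2.57% of all genes, and 1 was higher with each position counted once. The higher gene of largest ratio was BIP3, a chaperone of the endoplasmic reticulum stress response, with 0.331, 4.06, 2.08 and 32.8 RPKM and a ratio of 15.8 (8.64 to 32.2). In flavonoid synthesis TT4, the chalcone synthase, had 4.54, 49.2, 4.95 and 86.0 RPKM and was 17.4-fold higher (11.2 to 28.4). TT4 was thus high in both libraries labelled suvr5 and low in both others. It was the one called gene of 9 in its list, beside 4.06% higher over all genes. None of 8 iron genes and 5 genes of senescence and sugar starvation was called.

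No gene of H3K4 and H3K9 methylation was called among 15 with a read, and their median log2 ratio was 0.16. JMJ14, an H3K4 demethylase, had 7.37, 6.76, 5.92 and 14.8 RPKM with a ratio of 2.49 (1.81 to 3.49), and IBM1, an H3K9 demethylase, had 7.76, 3.65, 4.82 and 9.15 RPKM with a ratio of 1.90 (1.37 to 2.65). LDL3 with 4.32, 4.73, 6.998 and 5.62 RPKM and the LSD1 relative FLD with 4.57, 7.06, 3.31 and 5.95 RPKM were not called. The flowering repressor FLC, a target of FLD that shares exon bases with an antisense gene, had 0.298, 1.35, 10.2 and 12.9 RPKM. FLC was thus higher in both LDL mutant libraries than in Col-0 and suvr5-1, and its ratio of triple mutant to ldl1 ldl2 was 1.27 (0.779 to 2.09). None of 13 flowering-time genes with a read was called. AT1G12160, another gene measured by RT-qPCR and a flavin monooxygenase by its annotation, had 3.30, 8.38, 7.30 and 19.1 RPKM and a ratio of 2.62 (1.73 to 4.07). PBS3, described above, was measured too. AGO3 (AT1G31290) had 8, 5, 3 and 0 reads and AT4G36510 had 0, 0, 0 and 1 reads, and neither was called. The noncoding RNA AT3G22121, whose exon bases all overlap another gene, had a ratio of 1.43 (1.37 to 1.49) and was not called. Its log2 ratio was -0.13 with each position counted once. AT5G54490 lies outside the analysed stretches. The actin gene ACT7, the RT-qPCR reference, had 221, 291, 289 and 383 RPKM and a ratio of 1.33 (1.24 to 1.42).

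Markers of tissues and cell types placed these values. All 6 leaf mesophyll markers were abundant, with summed levels of 28022, 28818, 23186 and 22371 RPKM, and none was called, whereas the 4 root, 7 seed and 1 shoot meristem markers in the stretches summed to at most 3.05 RPKM per list in any library. The 8 flower and anther markers summed to 10.5, 20.7, 25.6 and 15.2 RPKM, with 5 of 8 at 0 in ldl1 ldl2 and 2 of 8 in the triple mutant, and SEP3 had 1.38, 4.999, 16.1 and 4.096 RPKM. Of the 5 guard cell and myrosin cell markers 1 was called, beside 6.63% of all genes, and 3 log2 ratios were positive and 2 negative. They summed to 223, 1037, 371 and 1497 RPKM, none was at 0, and TGG1 and TGG2 made up most of the sum. The thioglucosidase gene TGG1 (AT5G26000) had 153, 656, 166 and 883 RPKM and a ratio of 5.33 (4.94 to 5.75). TGG2 had 32.1, 349, 170 and 579 RPKM and FMA, the guard cell identity factor, 17.3, 13.0, 7.78 and 21.7 RPKM, whereas MYB60 (4.80, 6.38, 5.18 and 4.22 RPKM) and OST1 (15.9, 12.8, 22.0 and 9.18 RPKM) had negative log2 ratios. The part of these cells in the immunity result was not tested, and in bulk leaves a changed number of such cells and a changed amount of RNA per cell cannot be told apart.

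The same mutation was available in plants with functional LDL genes, through the suvr5-1 and Col-0 libraries, which are not used in the ratio of triple mutant to ldl1 ldl2. Across the 6642 genes with at least 20 reads in every library, the 2 log2 ratios had a Pearson r of 0.040 and a Spearman rho of 0.018 as a description across genes. In suvr5-1 against Col-0, 301 genes were higher (2.57% of 11700) and 214 lower (1.83%) by the same rule. Of the 485 genes higher in the triple mutant, 58 (11.96%, and 19.3% of the suvr5-1 list) were higher in suvr5-1 too and 21 (4.33% and 9.81%) were lower there. Of the 307 lower genes, 13 (4.23% and 6.07%) were also lower in suvr5-1 and 25 (8.14% and 8.31%) were higher. Genes could therefore be sorted by whether loss of SUVR5 went the same way in both backgrounds.

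Those higher in both backgrounds with most reads, chosen after their values were seen, included defence genes. TGG1, AT5G03350 (a lectin gene with 51.0, 282, 123 and 990 RPKM), the aspartyl protease gene AT5G10760 (22.7, 168, 121 and 517 RPKM), ARCK1 and PBS3 were among them. For each of these the suvr5 library of a pair was at least 4-fold above its partner, and the triple mutant was highest of the 4. With each position counted once, the log2 ratios of triple mutant to ldl1 ldl2 were 1.34 for TGG1, 1.73 for AT5G03350 and 1.29 for AT5G10760, and these 3 were no longer called, while ARCK1 (2.32) and PBS3 (2.95) were. AT5G10760 was also under the limit with size factors (1.94). The same set held AT3G22235 (48.6, 351, 210 and 989 RPKM), AT1G04800, AT1G04790 and AT4G18253. With each position counted once, the log2 ratios were -0.29 for AT3G22235, 1.94 for AT1G04800 and 1.49 for AT1G04790. Those genes were then not called, while AT4G18253 (2.89) was. GER3, a germin-like cell wall protein gene, had 11.8, 325, 38.6 and 175 RPKM, so here suvr5-1 was the highest. Its log2 ratio of triple mutant to ldl1 ldl2 was 1.88 with each position counted once, below the limit. PCC1, a membrane-associated defence protein gene, had 90.0, 1286, 600 and 1967 RPKM, and its ratio of 3.28 (3.07 to 3.50) in the double mutant background was below the limit. Of the genes lower in both, the anion channel gene SLAH3 had 14.0, 2.96, 28.7 and 3.47 RPKM, and AT3G02480, a late embryogenesis abundant protein gene, had 118, 1.65, 33.6 and 0 RPKM.

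A Poisson likelihood ratio test of the difference between the 2 ratios, on 9609 genes with at least 20 reads over the 4 libraries, called 489 genes (5.09%) with a ratio over 4-fold higher in the ldl1 ldl2 background and 449 (4.67%) with one over 4-fold lower. With all nuclear reads as library size the split was 351 and 624, so the balance between both directions moved with the scaling. ELI3-2 (AT4G37990), an alcohol dehydrogenase gene induced by elicitors, had 73.3, 16.9, 6.35 and 175 RPKM. Loss of SUVR5 went with a lower level in the LDL wild type and with a 27.6-fold (19.2 to 41.1) higher level in ldl1 ldl2, and the log2 ratios differed by 6.90. AT3G22600, a lipid-transfer protein gene (49.9, 12.04, 8.52 and 210 RPKM), CSLG2, a cellulose synthase-like gene (12.4, 2.17, 2.36 and 47.6 RPKM), and AT5G20960 (AO1), an aldehyde oxidase gene (9.38, 2.096, 3.13 and 22.2 RPKM), showed the same order. In each of these genes ldl1 ldl2 and suvr5-1 were below Col-0, and the triple mutant was above it.

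Among genes with the opposite crossing, GA2OX6 (AT1G02400), which inactivates gibberellin, had 0.469, 4.09, 45.3 and 10.2 RPKM, and AT5G02760, a protein phosphatase 2C gene, had 17.3, 76.8, 60.6 and 6.52 RPKM. Their log2 ratios in the 2 backgrounds differed by -5.28 and -5.37. The pectin lyase-like gene AT3G07850 (0.612, 10.9, 9.79 and 1.61 RPKM), sks13 (0.328, 5.19, 7.87 and 1.46 RPKM) and the pectin lyase-like gene AT5G07410 (0.717, 19.0, 10.11 and 2.36 RPKM) were high in suvr5-1 and ldl1 ldl2 and low in the other libraries. The gene sks13 is known from pollen, and the summed flower and anther markers given above were highest in suvr5-1 and ldl1 ldl2, where SEP3 made up most of the ldl1 ldl2 sum and 5 of 8 markers were at 0. The part of such tissue was not tested. With each position counted once, the log2 ratios of triple mutant to ldl1 ldl2 were -1.50 for AT3G07850, -1.83 for sks13 and -1.38 for AT5G07410, and none of the 3 was called lower.

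By list, 15 of 41 SAUR genes and 7 of 13 cold and dehydration genes had a ratio called lower in the ldl1 ldl2 background, and 9 of 16 aliphatic glucosinolate genes had one called higher, beside 4.67% lower and 5.09% higher over all genes of that test. These counts were 8, 5 and 2 with each position counted once, the aliphatic count was 6 under both other library sizes, and the cold count was 4 where positions had to match within 10 bp. The SAUR median log2 ratio was 1.38 for suvr5-1 over Col-0 and -0.77 for the triple mutant over ldl1 ldl2. AT4G34760, for instance, had 24, 272, 48 and 25 reads in the 4 libraries. The cold list had medians of 0.16 and -2.55, and the aliphatic glucosinolate list -1.66 and 0.45. In the salicylic acid list the medians were 0.79 and 0.71, with 2 genes called in each direction by the test of the difference. Of the 4 lists its medians alone lay close together, but the 0.71 was 0.19 with each position counted once. Medians also lay close in the CRK list (0.75 and 0.60) and the flavonoid list (0.56 and 0.62), but not in the WRKY list (-0.12 and 0.82). Close medians did not mean that single genes went alike. The test of the difference called 2 of 35 CRK genes higher and 6 lower in the ldl1 ldl2 background. It called 2 of 9 flavonoid genes lower, and 4 of 32 WRKY genes higher and 1 lower.

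**Figure D5:**
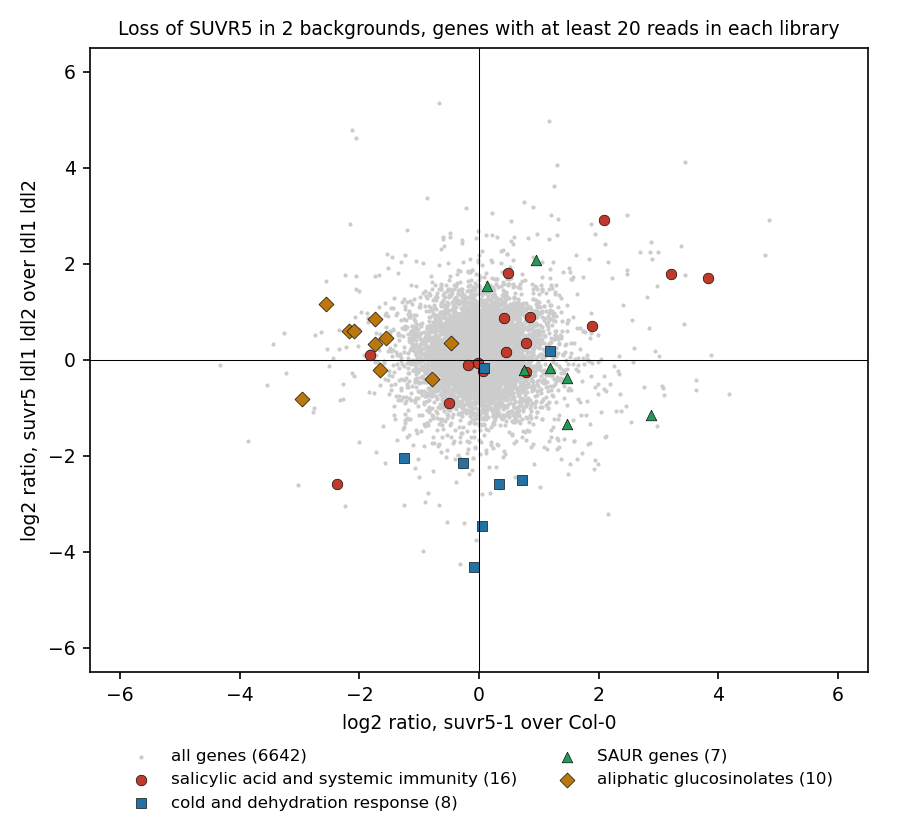
Log2 ratio of triple mutant over ldl1 ldl2 (vertical) against that of suvr5-1 over Col-0 (horizontal) for the 6642 genes with at least 20 reads in each library; 4 gene lists are coloured, and each point is 1 gene from single libraries. The 10 aliphatic glucosinolate genes lie left of 0, the 7 SAUR genes lie right of 0 with 5 of them below 0 on the vertical axis, and the 8 cold genes lie below 0 with 1 exception.

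Deposited positions could be compared over the whole nuclear genome without annotation. Of 62918 bins of 1 kb with a read, 2245 (3.57%) were higher and 1857 (2.95%) lower in the triple mutant by the same rule with nuclear reads as library size. In the chromosome arms 2072 of 56018 bins (3.70%) were higher and 1652 (2.95%) lower. In the pericentromeres, where H3K9me2 is dense, 173 of 6900 bins (2.51%) were higher and 205 (2.97%) lower. The pericentromeric bins were thus called higher in a smaller share than the bins of the arms, a difference that was not tested. Counted by distinct positions, 512 bins were higher and 262 lower. With reads on genes as library size, 2402 bins were higher and 1611 lower. The 10 bins with most reads held 47.1% of the nuclear reads of ldl1 ldl2 and 48.7% of those of the triple mutant.

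The octamer TACTAGTA, which the zinc fingers of SUVR5 bind in vitro, was searched on either strand of the same 300-base windows. It was found in 0.821% of all tested genes, in 4 of the 485 higher genes (0.825%, Wilson interval 0.321 to 2.101%) and in 6 of the 307 lower genes (1.95%, 0.899 to 4.20%). The interval of the higher genes includes the share of all genes, and that of the lower genes, on 6 genes, lies above it. In 1 kb upstream the shares were 2.81% of all, 2.27% (1.27 to 4.02%) of higher and 3.26% (1.78 to 5.89%) of lower genes. There both intervals include the share of all genes. The inner letters ACTAGT, which every octamer contains, were found in 7.404% of all, 9.90% (7.55 to 12.9%) of higher and 10.098% (7.21 to 14.0%) of lower genes. The W-box (TTGACC or TTGACT) was found in 36.5% (32.3 to 40.9%) of higher and 30.9% (26.04 to 36.3%) of lower genes, beside 32.1% of all.

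A gene called in each direction is shown with the octamer in capitals, as the 250 bases before its annotated start in TAIR10.1, since these carry the letters that SUVR5 was shown to bind. UBC25 encodes a ubiquitin-conjugating enzyme and TAR2 an aminotransferase of auxin synthesis.
UBC25 (chr3:5183391-5183640, plus strand): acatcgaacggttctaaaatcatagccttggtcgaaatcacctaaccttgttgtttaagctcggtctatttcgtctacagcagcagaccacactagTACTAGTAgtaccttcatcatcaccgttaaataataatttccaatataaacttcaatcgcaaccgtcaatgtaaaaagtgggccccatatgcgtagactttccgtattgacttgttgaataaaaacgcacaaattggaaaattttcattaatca
TAR2 (chr4:12731332-12731581, minus strand): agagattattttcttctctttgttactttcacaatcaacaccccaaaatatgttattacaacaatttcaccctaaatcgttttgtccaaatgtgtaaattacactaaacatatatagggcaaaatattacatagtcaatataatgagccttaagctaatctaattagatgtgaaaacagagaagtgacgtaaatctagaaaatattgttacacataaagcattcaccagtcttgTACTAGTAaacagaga
UBC25 had 71, 109, 29 and 141 reads in the 4 libraries and was 4.20-fold higher in the triple mutant than in ldl1 ldl2, and its octamer starts 154 bases before the gene. TAR2 had 25, 31, 16 and 4 reads and a log2 ratio of -2.21, with the octamer starting 16 bases before the gene. UBC25 thus had its highest normalised value in the triple mutant and TAR2 its lowest, from few reads.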

How the data were processed

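Poly(A) RNA from leaves of 4 genotypes was sequenced, with 1 library each and 10406023 to 15083462 mapped reads. The authors deposited the positions and strands of mapped reads, which are neither counts per gene nor normalised values, and the submitters' processing notes name Bowtie. The genome build of these positions was not given in the sources used here, although the paper names TAIR8 gene models for a browser view. Positions were compared with TAIR10.1 in windows of 250 kb, and the 198 of 478 windows displaced by at most 30 bp, in 6 stretches with 41.4% of the assembly, were kept. Read starts on merged exons were counted without strand, so reads on bases shared by genes (5300 genes) were counted for each, and scaled by all reads on genes (2491499 to 4406796).

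Fisher's exact test compared single libraries, so the P-values and intervals cover counting error only and PCR copies are not independent molecules. A library without a read was set to 3 reads for a ratio, which is a convention and not a lower limit. Such a gene was called whenever its adjusted P was under 0.01, so its ratio may lie under 4-fold. The interaction of SUVR5 and LDL genotype was a Poisson likelihood ratio test. Shares have Wilson 95% intervals.

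Named genes were the 10 highest and 10 lowest ratios with at least 100 reads in the higher library, the 3 largest interactions each way, called members with most reads of each list, the H3K4 and H3K9 genes and the RT-qPCR genes. Further genes were chosen after their values were seen. Members and lists were chosen with earlier results of these data known. In the lists 26 symbols had no match and 6 matches by synonym were left out. Other library sizes, positions counted once, introns, a minimum of 10 reads, shared exons left out, a displacement of 10 bp, a 2-fold limit, a beta-binomial test that assumes a dispersion of 0.1 and 1 kb promoters were tried. The scripts were tested on simulated data. Python 3.11.15, numpy 2.4.6, scipy 1.17.1, pandas 2.3.3 and matplotlib 3.10.9 were used.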

Additional observations from a re-analysis of the deposited data

Results flagged for a closer look

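The Poisson likelihood ratio test of the difference between the ratio of triple mutant to ldl1 ldl2 and that of suvr5-1 to Col-0 called 489 genes with a higher and 449 with a lower ratio in the ldl1 ldl2 background, from single libraries. By list these included 15 SAUR genes and 7 cold and dehydration genes with a lower ratio and 9 aliphatic glucosinolate genes with a higher one. The differences in log2 ratio were largest upwards for AT1G10585 (8.25), AT3G18250 (8.18) and PRX52 (AT5G05340, 7.59), and downwards for AT4G08985 (-8.37), AT5G07410 (-6.82) and the methionine sulfoxide reductase gene MSRB6 (AT4G04840, -6.43), by the rule for named genes with at least 100 reads in 1 library.

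Among genes called in opposite directions in the 2 backgrounds, the difference was 6.90 for ELI3-2 (AT4G37990), 6.85 for CSLG2 (AT4G24000), 6.68 for AT3G22600, 6.58 for AT1G30700, 6.31 for AT4G23680 and 4.98 for AT5G20960. It was -6.83 for AT1G06360, -6.76 for AT3G07850, -6.42 for sks13 (AT3G13400), -5.37 for AT5G02760, -5.28 for GA2OX6 (AT1G02400), -5.13 for RABG3B (AT1G22740), -4.61 for AT4G32800 and -4.52 for AT5G02675.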

How the results depend on the processing

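No paired analysis was possible because each genotype had 1 library, and for the same reason no library could be left out. With median-of-ratios size factors the median log2 ratio of all genes was -0.0013, the ribosomal list had a median of 0.21, and 2 WRKY genes were lower, as with nuclear reads as library size. Under size factors 384 genes were higher and 356 lower, among them 384 of the 485 and 307 of the 307 genes called before. With each position counted once, 170 genes were higher, 78 lower and 389 had a ratio that differed between backgrounds; 4 CRK and 4 WRKY genes were higher, 0 WRKY genes lower, and 1 SAUR gene was higher and 1 lower. List medians were then -1.96 for cold, -0.69 for photosynthesis, 0.16 for ribosomal and -0.66 for leaf mesophyll genes, the log2 ratio of AT3G22235 was -0.29, and 512 bins were higher and 262 lower. A displacement of at most 10 bp left 2 lower SAUR genes. A limit of 2-fold gave 1169 higher and 693 lower genes, 2183 genes that differed between backgrounds, and 4136 higher and 3418 lower bins. A beta-binomial test that assumes a dispersion of 0.1 gave 97 and 37 genes. In 1 kb upstream, shares for all, higher and lower genes were 2.81%, 2.27% and 3.26% for TACTAGTA, 21.7%, 26.2% and 26.4% for ACTAGT, 66.8%, 69.3% and 66.8% for the W-box, 15.2%, 16.7% and 15.96% for the G-box, 14.4%, 14.4% and 16.6% for the evening element and 9.17%, 8.04% and 10.098% for GCCGAC. The cause of these differences was not tested.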
